A study of Mus musculus with 3 samples.

Results

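The cells described are type 2 dendritic cells of mouse skin, taken as the barcodes of 3 single-cell RNA libraries that met a rule on raw UMI counts (UMIs are unique molecular identifiers, each standing for 1 captured RNA molecule). A barcode was a member where it had at least 500 detected genes, at most 15% mitochondrial UMIs, at least 20 UMIs of the MHC class II genes H2-Ab1, H2-Eb1 and Cd74 together and at least 2 UMIs of Cd209a. It also had at most 1 UMI of the type 1 dendritic cell genes Xcr1 and Clec9a, fewer than 4 of the mature dendritic cell genes Ccr7 and Fscn1, and at most 1 of the macrophage genes Folr2, Cd209f and Fcna. Finally it had at most 2 UMIs of Lyz1, Ear2 and Dcstamp, no UMI of Cd3e and fewer than 10 of Krt5 and Krt14. The rule was met by 214 cells of the CIA+VFX library, 245 of the CIA library and 161 of the Cont library, 620 of the 45846 cells that passed the filter on genes and mitochondrial UMIs. The 17 genes of the rule chose the members, so their levels are given as a description only.

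The libraries came from back skin, depilated with wax, of female C57BL/6 mice aged 9 weeks. CIA+VFX mice had the model of chemotherapy-induced alopecia and were given venlafaxine, CIA mice had the model alone, and Cont mice received vehicle. The labels give neither the drug that induced the model, nor a dose, nor a day of sampling. Each group was 1 library made from skin of an unstated number of pooled mice, so no difference between groups could be tested. The intervals below cover counting error at 95% and say nothing of the spread between mice.

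Type 2 dendritic cells are the conventional dendritic cells that depend on the transcription factor Irf4 and present antigen on MHC class II to CD4+ T cells. In mouse skin they lie in the dermis, express the lectins Mgl2 (CD301b) and Cd209a (a mouse homologue of DC-SIGN), and migrate to the draining lymph node after upregulating Ccr7. They share many genes with monocyte-derived cells, which enter inflamed skin from blood and can acquire MHC class II there. Flt3, the receptor for the growth factor that sustains conventional dendritic cells, and the transcription factor Zbtb46 mark the dendritic lineage.

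Members carried 1636799 UMIs in CIA+VFX, 1991101 in CIA and 1331144 in Cont, of 155210692, 130557879 and 143164803 UMIs in the whole libraries. Their median depth was 7291.5 UMIs in CIA+VFX, 7523 in CIA and 8119 in Cont, and their median share of mitochondrial UMIs was 1.30%, 0.929% and 1.14% in the same order. Between 75 and 110 barcode sequences occurred in both libraries of a pair, but no member shared its barcode with a member of another library. UMIs of the members were summed per library and divided by the members' total, giving CPM (counts scaled to a common total for each library). Only 1 barcode in Cont, and none in CIA+VFX or CIA, met the marker terms but failed the filter.

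By the rule, members had 1158 CPM of Cd209a in CIA+VFX, 1129 CPM in CIA and 1224 CPM in Cont and 8552 CPM of H2-Ab1 in CIA+VFX, 9772 CPM in CIA and 8954 CPM in Cont. The lineage genes that the rule did not use fitted the label in part. Mgl2 stood at 1137 CPM in CIA+VFX, 989.9 CPM in CIA and 894 CPM in Cont, and after thinning each cell to 2000 UMIs it was detected in 66.8% of members in CIA+VFX, 56.4% in CIA and 55.3% in Cont, against 0% of keratinocytes in CIA+VFX, 0.338% in CIA and 0% in Cont, which give the level of free RNA. Mgl2 was not particular to members, since Folr2 macrophages had 728 CPM in CIA+VFX, 764 CPM in CIA and 544 CPM in Cont. Flt3 stood at 62.9 CPM in CIA+VFX, 69.8 CPM in CIA and 90.1 CPM in Cont, and Folr2 macrophages of the same libraries had 0.993 CPM in CIA+VFX, 1.24 CPM in CIA and 0.186 CPM in Cont. Zbtb46 reached 54.4 CPM in CIA+VFX, 56.3 CPM in CIA and 107 CPM in Cont, and Irf4 56.8 CPM in CIA+VFX, 53.7 CPM in CIA and 73.6 CPM in Cont. Irf8, the factor that drives type 1 dendritic cells, was low in members, with 40.3 CPM in CIA+VFX, 51.2 CPM in CIA and 24 CPM in Cont, whereas type 1 dendritic cells had 771 CPM in CIA+VFX, 944 CPM in CIA and 671 CPM in Cont. C1qa, a complement gene of tissue macrophages, gave 110 CPM in CIA+VFX, 88.9 CPM in CIA and 83.4 CPM in Cont in members and 4139 CPM in CIA+VFX, 4717 CPM in CIA and 3308 CPM in Cont in Folr2 macrophages. The rule capped the macrophage genes Folr2, Cd209f and Fcna in members, and the macrophages were chosen for them, so less C1qa in members follows in part from the choice. Likewise Xcr1 and Clec9a were capped in members, and the type 1 dendritic cells were chosen for them. Less Irf8 in members thus also follows in part from the choice. The macrophage markers Mrc1 and Apoe, whose values are given below, were more abundant in members than C1qa in each library. Members therefore carried dendritic genes in each library, but only a part of them showed a dendritic lineage UMI.

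The remaining measured genes of the type 2 dendritic cell list lay within 1.5-fold in CIA against Cont, apart from Rbpj, Clec4a2 and Cd24a, which are given with that comparison. Zeb2, a repressor that type 2 dendritic cells need, had 1284 CPM in CIA+VFX, 1039 CPM in CIA and 990.1 CPM in Cont, and the regulatory gene Id2 479.6 CPM in CIA+VFX, 502 CPM in CIA and 624 CPM in Cont. Klf4, a factor needed for the Mgl2-expressing dermal subset, had 244 CPM in CIA+VFX, 227 CPM in CIA and 162 CPM in Cont, and Sirpa, an inhibitory receptor used to sort type 2 dendritic cells, 114 CPM in CIA+VFX, 78.3 CPM in CIA and 60.1 CPM in Cont. Both were highest in CIA+VFX and lowest in Cont. The integrin genes Itgax (CD11c) and Itgam (CD11b) had 48.3 CPM in CIA+VFX, 39.7 CPM in CIA and 36.1 CPM in Cont, and 159 CPM in CIA+VFX, 149 CPM in CIA and 179.5 CPM in Cont. Notch2, a receptor upstream of Rbpj, had 148 CPM in CIA+VFX, 146 CPM in CIA and 190.1 CPM in Cont, and Relb, a subunit of NF-kappa B, 169 CPM in CIA+VFX, 178 CPM in CIA and 213 CPM in Cont. The receptor chain genes of granulocyte-macrophage colony-stimulating factor, Csf2ra and Csf2rb, had 168 CPM in CIA+VFX, 218 CPM in CIA and 159 CPM in Cont, and 522 CPM in CIA+VFX, 513 CPM in CIA and 401 CPM in Cont. Tnip3 had 1653 CPM in CIA+VFX, 1444 CPM in CIA and 2009.5 CPM in Cont, Clec10a 359.8 CPM in CIA+VFX, 425 CPM in CIA and 368 CPM in Cont, and the macrophage and dendritic cell factor gene Spi1 265 CPM in CIA+VFX, 273 CPM in CIA and 228 CPM in Cont. Kit, a stem cell factor receptor, had 7 UMIs in CIA+VFX, 6 in CIA and 14 in Cont.

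Genes of the splenic and T-bet subsets were near 0 in members. Tbx21, which encodes T-bet, had 7 UMIs in CIA+VFX, 10 in CIA and 9 in Cont. Esam, Dtx1, Ltb and Clec4a4, genes of splenic subsets, each had at most 3 UMIs in a library. Clec12a, an inhibitory lectin, had 35.4 CPM in CIA+VFX, 45.7 CPM in CIA and 37.6 CPM in Cont, and Cd300a 351 CPM in CIA+VFX, 311 CPM in CIA and 353 CPM in Cont. Ccr2, the receptor by which monocytes and some dendritic cells leave the marrow, had 329.9 CPM in CIA+VFX, 251 CPM in CIA and 231 CPM in Cont, and Cx3cr1 23.8 CPM in CIA+VFX, 19.1 CPM in CIA and 24.8 CPM in Cont. Tmem176a had 292 CPM in CIA+VFX, 279 CPM in CIA and 346 CPM in Cont, and Tmem176b 407 CPM in CIA+VFX, 424 CPM in CIA and 375 CPM in Cont. Fcrls was the subset gene lower in CIA, with 26.3 CPM in CIA+VFX, 21.6 CPM in CIA and 45.8 CPM in Cont.

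At least 1 UMI of Flt3 or Zbtb46 was seen in 93 of 214 members in CIA+VFX (43.5%), 123 of 245 in CIA (50.2%) and 98 of 161 in Cont (60.9%). Cells with such a UMI were deeper, with median depths of 7838, 8040 and 9191 UMIs, against 6677, 6904.5 and 6372 UMIs in the remaining members of CIA+VFX, CIA and Cont. Lyz2, a lysozyme gene of monocytes and macrophages, was at 1343 CPM with and 4952 CPM without a dendritic lineage UMI in CIA+VFX, at 1799 and 4455 CPM in CIA, and at 1111 and 3408 CPM in Cont. C1qa behaved alike, with 10.6 and 195 CPM in CIA+VFX, 22.4 and 166 CPM in CIA, and 5.46 and 255 CPM in Cont. Mgl2 differed less, with 1020 and 1237 CPM in CIA+VFX, 1041 and 931 CPM in CIA, and 893.9 and 894 CPM in Cont. Other monocyte genes did not follow Lyz2. Plac8 was at 208 CPM with and 205 CPM without such a UMI in CIA+VFX, 377 and 293 CPM in CIA, and 203 and 145 CPM in Cont. Ly6c2 was at 38.5 and 72.5 CPM in CIA+VFX, 124 and 134 CPM in CIA, and 84.0 and 24.1 CPM in Cont. The members without Flt3 or Zbtb46 thus held more Lyz2 and C1qa in each library but not more of every monocyte gene, and their share was highest in CIA+VFX and lowest in Cont. Its part in the differences between libraries below was not tested, and detection of Flt3 and Zbtb46 also moves with depth.

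**Figure D1:**
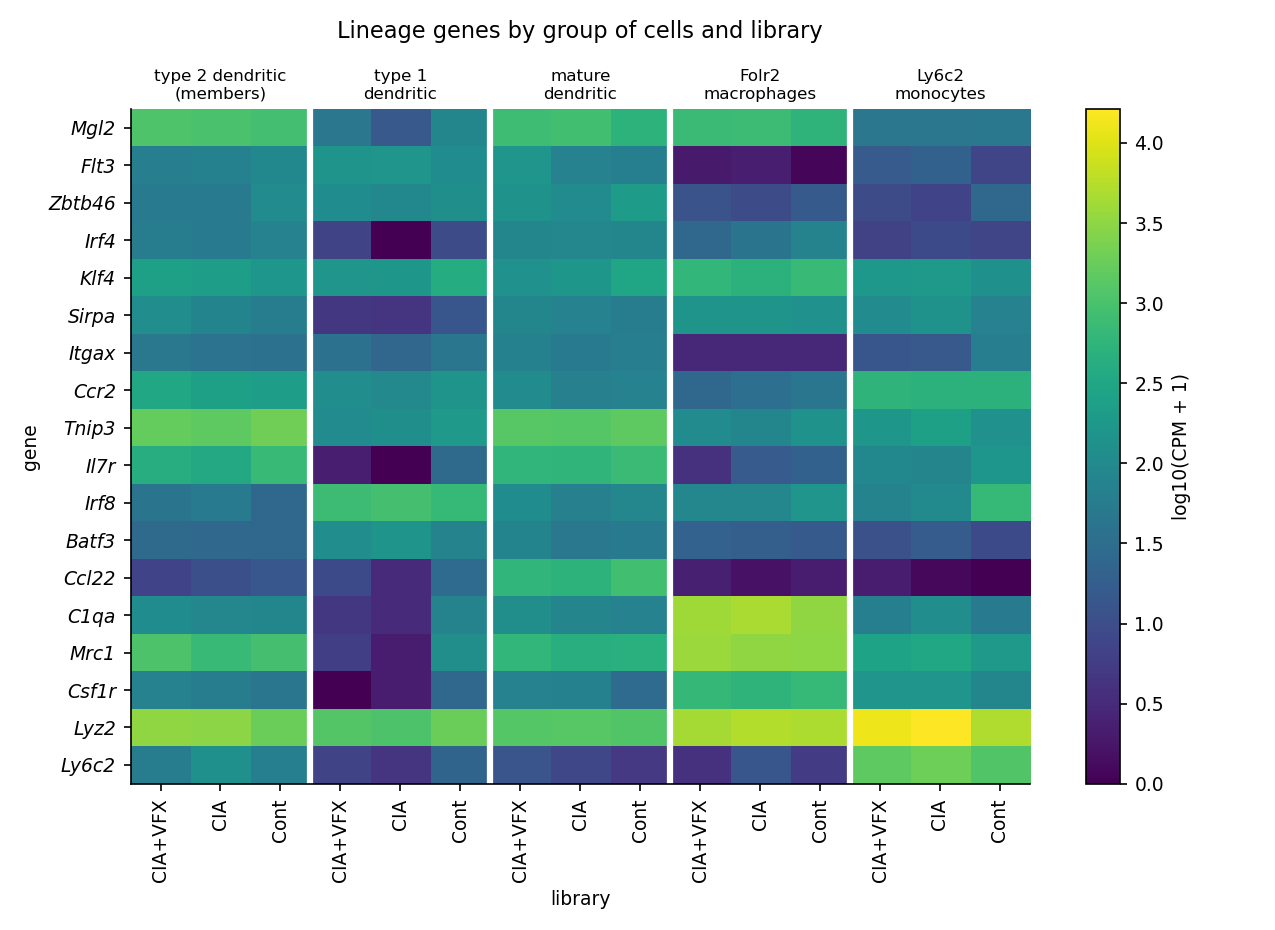
Levels of lineage genes as log10(CPM + 1), by gene (rows) and by group of cells and library (columns), from summed UMIs. Tnip3 and Il7r are bright in members and mature dendritic cells, Irf8 and Batf3 in type 1 dendritic cells, C1qa and Csf1r in Folr2 macrophages, and Ly6c2 in monocytes. Mgl2 is bright in members and mature dendritic cells and also in Folr2 macrophages. Lyz2 is bright in monocytes and also in members, where it lies above Mgl2 in each library.

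Of the markers of other cell types, those of monocytes were the most abundant in members. The 20 monocyte markers summed to 9707 CPM in CIA+VFX, 9131 CPM in CIA and 6470 CPM in Cont. The 22 macrophage markers that the rule left free summed to 2737, 1985 and 2635 CPM, against 51189, 49948 and 45835 CPM in Folr2 macrophages of the same libraries. Markers of B cells and of mast cells and basophils summed to at most 62.3 and 15.8 CPM, and those of melanocytes and Schwann cells to at most 22.5 CPM. Type 1 dendritic cell markers outside the rule summed to 582 CPM in CIA+VFX, 621 CPM in CIA and 405 CPM in Cont, against 4602, 4697 and 4334 CPM in type 1 dendritic cells. Of the 6 measured ones 5 were higher in CIA than in Cont (Irf8, Naaa, Ifi205, Ppt1 and Rab7b) and none lower, with a median log2 ratio of 0.76, or -0.11 without the Lyz1, Ear2 and Dcstamp term. Their part in the differences below was not tested. Fibroblast markers summed to 583 CPM in both CIA+VFX and CIA and to 93.2 CPM in Cont. Of the 519 UMIs of Dcn, a fibroblast proteoglycan gene, in CIA members, 393 came from 1 cell, and in CIA+VFX members 85 of 238 came from 1 cell.

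As a share of all filtered cells, members made up 1.29% in CIA+VFX (exact binomial interval 1.12 to 1.47%), 1.48% in CIA (1.30 to 1.67%) and 1.27% in Cont (1.09 to 1.49%). The ratio of shares was 1.16 in CIA relative to Cont (0.952 to 1.41), 0.870 in CIA+VFX relative to CIA (0.725 to 1.04) and 1.01 in CIA+VFX relative to Cont (0.824 to 1.24). All 3 of these intervals included 1, but they cover counting error only and do not test a difference between groups. Of cells with a Ptprc UMI (CD45, the common leukocyte antigen), members were 4.89% in CIA+VFX, 4.31% in CIA and 3.06% in Cont. Of cells with at least 20 MHC class II UMIs they were 13.5%, 10.7% and 6.92%. With the Ptprc denominator the counting interval was 1.15 to 1.73 for CIA relative to Cont. It was 1.30 to 1.97 for CIA+VFX relative to Cont and 0.945 to 1.36 for CIA+VFX relative to CIA. With the MHC class II denominator the intervals were 1.28 to 1.87, 1.61 to 2.38 and 1.07 to 1.51 in the same order. Those denominators hold other cells whose numbers differed: Folr2 macrophages numbered 472 in CIA+VFX, 761 in CIA and 807 in Cont, and Ly6c2 monocytes 448, 801 and 106.

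The term on Lyz1, Ear2 and Dcstamp, genes of another dermal myeloid population, was 1 of the choices on which the direction of the share rested. By itself it left out 126 cells in CIA+VFX, 153 in CIA and 365 in Cont. Without it the rule took 340, 398 and 526 cells, and the ratio of shares became 0.577 in CIA relative to Cont and 0.491 in CIA+VFX relative to Cont. Without the term on Folr2, Cd209f and Fcna the ratio of CIA to Cont was 0.843, and with Flt3 or Zbtb46 required it was 0.957. The cells it left out resembled members in Mgl2, with 1374 CPM in CIA+VFX, 1452 CPM in CIA and 1112 CPM in Cont, but Flt3 was at 9.78 CPM in CIA+VFX, 19.9 CPM in CIA and 9.13 CPM in Cont and Retnla at 1178 CPM in CIA+VFX, 939.6 CPM in CIA and 6719 CPM in Cont. Just inside the term, members with 1 or 2 such UMIs had 28.2 CPM of Flt3 in CIA+VFX, 38.8 in CIA and 46.2 in Cont, and cells just outside, with 3 or 4, had 12.2, 50.3 and 32.2 CPM. Members with none had 76.6, 82.1 and 108 CPM. Along the Cd209a threshold, members with exactly 2 Cd209a UMIs had 767, 554 and 762 CPM of Mgl2 in CIA+VFX, CIA and Cont, and cells with exactly 1 had 656, 596 and 555 CPM.

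**Figure D2:**
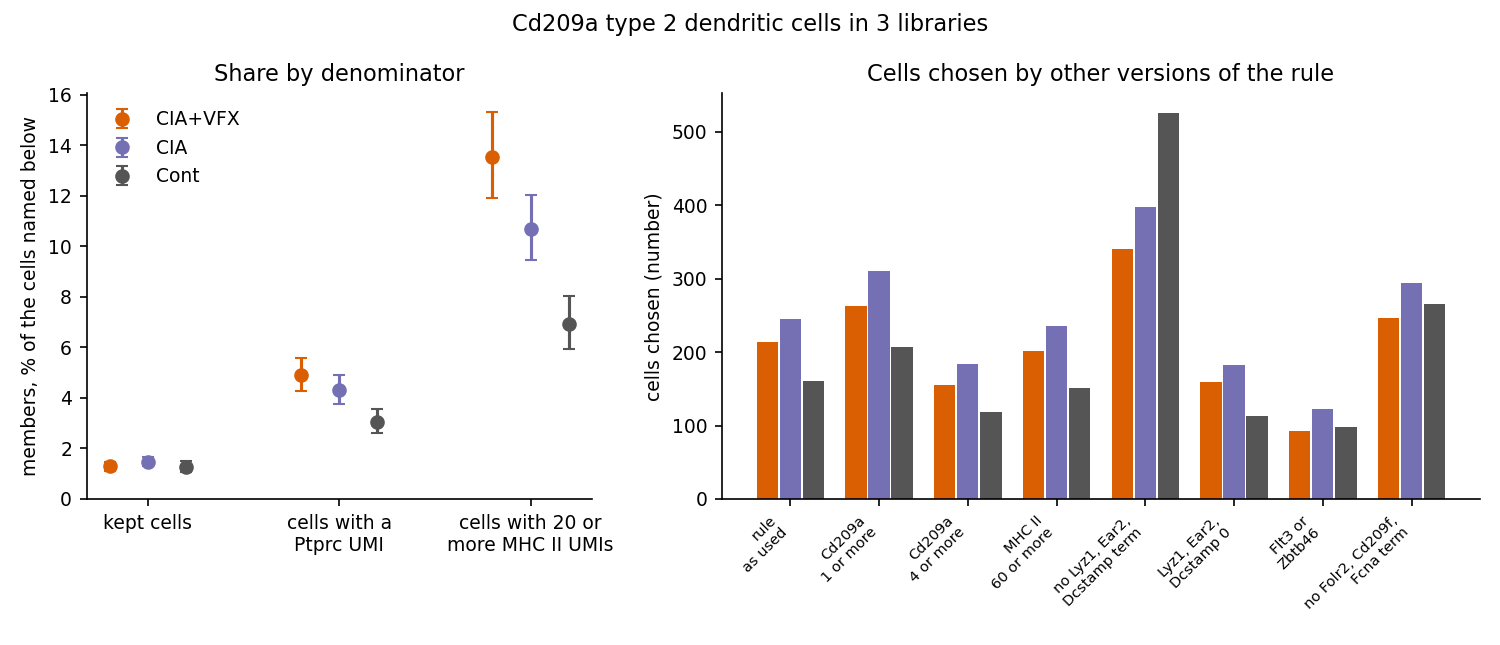
Left, members as a percent of 3 denominators with exact binomial 95% intervals; right, number of cells chosen by the rule and by 7 other versions of it. Shares of kept cells lie between 1.27% and 1.48%, and Cont holds the most cells by number only when the term on Lyz1, Ear2 and Dcstamp is left out (526 cells, against 340 in CIA+VFX and 398 in CIA). As a share of kept cells, Cont is also highest without the Folr2, Cd209f and Fcna term (2.10%, against 1.48% in CIA+VFX and 1.77% in CIA). The same holds with Flt3 or Zbtb46 required (0.775%, against 0.559% in CIA+VFX and 0.742% in CIA).

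Setting CIA against Cont asks what the chemotherapy model did to these cells. Members of CIA had more RNA of the growth factor gene Pgf, the fungal receptor gene Clec4n and the interleukin-1 decoy receptor gene Il1r2, of the chaperone genes Hsph1 and Dnajb1 and of G2/M genes, and less of Timd4, Dhx40 and Arap2. A gene counted as measured where the members of both libraries together had at least 100 UMIs, and as higher or lower where its CPM differed at least 1.5-fold. Of 4387 measured genes, 527 were higher in CIA (12%) and 513 lower (11.7%). Genes that were higher were short and genes that were lower were long: their median genomic spans were 12.4 kb and 72.8 kb, against 29.7 kb over all measured genes. The median log2 ratio was 0.25 for genes under 10 kb and -0.33 for genes over 100 kb. In type 1 dendritic cells the same medians were 0.25 and -0.33, and in keratinocytes 0.32 and -0.25. The part of gene span in the differences was not tested.

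Pgf encodes placental growth factor, a ligand of the receptor Flt1. It stood at 200.4 CPM in CIA+VFX, 183 CPM in CIA and 26.3 CPM in Cont, a log2 ratio of 2.80 (95% interval 2.30 to 3.35) for CIA over Cont. Its UMIs came from 50 of 214 cells in CIA+VFX, 56 of 245 in CIA and 17 of 161 in Cont, so in each library most members had none, and both model libraries lay above Cont. Mature dendritic cells had 222 CPM in CIA+VFX, 283 CPM in CIA and 17.4 CPM in Cont, and type 1 dendritic cells had 1.28 CPM in CIA+VFX, 0 CPM in CIA and 0 CPM in Cont. Clec4n (Dectin-2), a receptor for fungal mannans, stood at 126 CPM in CIA+VFX, 137 CPM in CIA and 21.8 CPM in Cont, with a log2 ratio of 2.65 (95% interval 2.10 to 3.26). It was found in 67 of 214 cells in CIA+VFX, 80 of 245 in CIA and 18 of 161 in Cont, and in keratinocytes it stood at no more than 0.566 CPM. Il1r2 binds interleukin-1 without signalling and had 329 CPM in CIA+VFX, 436 CPM in CIA and 111 CPM in Cont, 3.92-fold higher in CIA than in Cont, with a log2 ratio of 1.97 (95% interval 1.72 to 2.23). After thinning to 2000 UMIs, 29.9% of members in CIA+VFX, 39.9% in CIA and 13.2% in Cont had an Il1r2 UMI, against 4.43% of keratinocytes in CIA+VFX, 3.61% in CIA and 7.92% in Cont (without thinning 55.1%, 60.4% and 34.2% of members). In all 3 genes both CIA+VFX and CIA were high and Cont was low.

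Further genes higher in CIA were Tppp3, a tubulin-binding protein gene, with 145 CPM in CIA+VFX, 163 CPM in CIA and 45.8 CPM in Cont, and Ms4a6d, a membrane protein gene of myeloid cells, with 149.7 CPM in CIA+VFX, 164 CPM in CIA and 48.1 CPM in Cont. Adora2b, the adenosine A2B receptor, had 126 CPM in CIA+VFX, 156 CPM in CIA and 55.6 CPM in Cont, and Cd300c2, an activating receptor of myeloid cells, 112 CPM in CIA+VFX, 164 CPM in CIA and 58.6 CPM in Cont. Aprt, an enzyme of purine salvage, had 129 CPM in CIA+VFX, 172 CPM in CIA and 60.1 CPM in Cont. The histone gene H2bc4 had 197 CPM in CIA+VFX, 294 CPM in CIA and 79.6 CPM in Cont. For these 6 genes the CIA level was the highest and the Cont level the lowest, and each fold for CIA over Cont lay between 2.80 and 3.70. Without the term on Folr2, Cd209f and Fcna the log2 ratio of Ms4a6d was 0.45, under 1.5-fold. S100a3 ranked first by ratio, but 334 of its 344 UMIs in CIA came from 1 cell.

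Timd4, which encodes the phosphatidylserine receptor Tim-4, was the gene furthest below Cont by the naming rule. It stood at 15.9 CPM in CIA+VFX, 18.6 CPM in CIA and 231 CPM in Cont, a log2 ratio of -3.64 (95% interval -4.17 to -3.14), and its UMIs came from 9 of 214 cells in CIA+VFX, 9 of 245 in CIA and 40 of 161 in Cont. Both model libraries were low. Type 1 dendritic cells had 94.7 CPM in CIA+VFX, 61.3 CPM in CIA and 498 CPM in Cont, mature dendritic cells 70.8 CPM in CIA+VFX, 44.8 CPM in CIA and 263 CPM in Cont, and Folr2 macrophages 71.5 CPM in CIA+VFX, 113 CPM in CIA and 72.4 CPM in Cont. The dendritic groups thus all had more Timd4 in Cont, whereas in Folr2 macrophages CIA was the highest. Dhx40, an RNA helicase gene, stood at 332 CPM in CIA+VFX, 225 CPM in CIA and 1345 CPM in Cont, 5.98-fold lower in CIA, with a log2 ratio of -2.58 (95% interval -2.73 to -2.43). Mature dendritic cells had 388 CPM of Dhx40 in CIA+VFX, 317 CPM in CIA and 1028 CPM in Cont, whereas type 1 dendritic cells had 416 CPM in CIA+VFX, 338 CPM in CIA and 367 CPM in Cont and keratinocytes 50.8 CPM in CIA+VFX, 46.7 CPM in CIA and 62.4 CPM in Cont. Arap2, a regulator of Arf GTPases, had 449.7 CPM in CIA+VFX, 335 CPM in CIA and 1325 CPM in Cont, a log2 ratio of -1.98 (95% interval -2.11 to -1.85).

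The other genes of that end were lower in CIA as well. Cyp7b1, a hydroxylase of oxysterols that makes the ligand of the migration receptor Gpr183, had 62.3 CPM in CIA+VFX, 43.7 CPM in CIA and 190.1 CPM in Cont, from 14 of 214 cells in CIA+VFX, 20 of 245 in CIA and 19 of 161 in Cont. Gpr183 itself stood at 184 CPM in CIA+VFX, 257 CPM in CIA and 308 CPM in Cont. Hdac9, a class IIa histone deacetylase, had 103 CPM in CIA+VFX, 37.7 CPM in CIA and 172 CPM in Cont, and Mir155hg, the host transcript of miR-155, 37.9 CPM in CIA+VFX, 22.1 CPM in CIA and 104 CPM in Cont. Stat4, which signals below the interleukin-12 receptor, had 109 CPM in CIA+VFX, 102 CPM in CIA and 318 CPM in Cont. Prr5l, Prkcb, Tmtc2, St8sia4 and Chst11 were lower by log2 ratios between -2.46 and -1.67. Of the 12 genes lower in CIA, 8 spanned over 100 kb, and of the 12 higher none did. In each of the 11 genes after Timd4 the CIA+VFX level also lay below that of Cont.

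**Figure D3:**
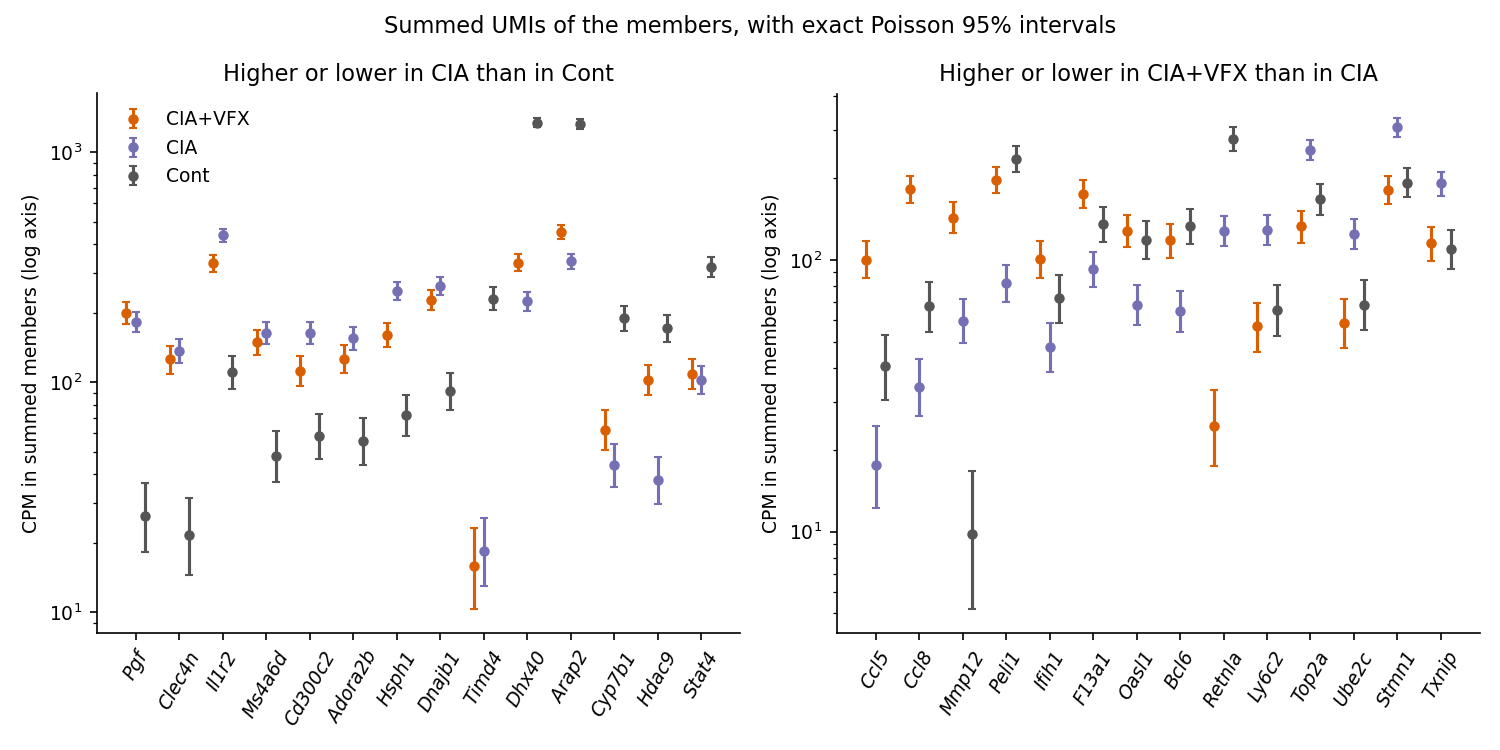
CPM in summed members on a log axis, with exact Poisson 95% intervals, for genes named in CIA against Cont (left) and in CIA+VFX against CIA (right); CIA+VFX, CIA and Cont run from left to right within each gene. On the left both model libraries lie on the same side of Cont for all 14 genes, and on the right Mmp12 is ordered CIA+VFX over CIA over Cont (143, 59.8 and 9.77 CPM).

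The counts of the gene lists in CIA against Cont are to be read beside the shares over all measured genes, 12% higher and 11.7% lower. A list count near those shares differs little from the background. Antigen presentation genes of the class II pathway leaned to the higher side in CIA, mostly by less than 1.5-fold. Of 12 measured genes of the MHC class II pathway outside the rule, 2 were higher in CIA and 1 lower, with a median log2 ratio of 0.42, against -0.02 over all measured genes, and 0.21 after the span correction. The transactivator Ciita had 77.6 CPM in CIA+VFX, 63.8 CPM in CIA and 36.8 CPM in Cont, and the protease Ctsl, which degrades the invariant chain, 67.2 CPM in CIA+VFX, 82.4 CPM in CIA and 45.1 CPM in Cont. H2-Ob, a chain of the peptide-loading modulator H2-O, had 23.8 CPM in CIA+VFX, 22.1 CPM in CIA and 48.1 CPM in Cont and was the lower gene. H2-Aa, a chain of the class II molecule itself, differed little, with 8818 CPM in CIA+VFX, 9607 CPM in CIA and 9543 CPM in Cont. Of 16 measured MHC class I pathway genes, 1 was higher, the immunoproteasome subunit gene Psmb8, with 294 CPM in CIA+VFX, 403 CPM in CIA and 259.9 CPM in Cont. The 2 lower ones were Nlrc5, the transactivator of class I genes, and the class Ib gene H2-Q7, with 57.4 CPM in CIA+VFX, 68.3 CPM in CIA and 153 CPM in Cont.

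Among 14 costimulation and checkpoint genes, 4 were higher in CIA and 1 lower. Lgals9, which encodes galectin-9, had 44.6 CPM in CIA+VFX, 47.7 CPM in CIA and 14.3 CPM in Cont, and Vsir (the checkpoint protein VISTA) 38.5 CPM in CIA+VFX, 38.7 CPM in CIA and 21.0 CPM in Cont. Havcr2, which encodes the galectin-9 receptor Tim-3, had 225 CPM in CIA+VFX, 260.2 CPM in CIA and 163 CPM in Cont, and Tnfsf9, the ligand of 4-1BB, 239 CPM in CIA+VFX, 224 CPM in CIA and 143 CPM in Cont. Cd83, a surface marker of activated dendritic cells, was the lower gene, with 426 CPM in CIA+VFX, 472 CPM in CIA and 760.2 CPM in Cont. Cd86, the ligand of CD28, had 466 CPM in CIA+VFX, 385 CPM in CIA and 534 CPM in Cont, within 1.5-fold. Of 13 genes of the mature dendritic cell programme, 2 were higher and 4 lower, with a median of -0.33. The lower ones were Cd83, Marcksl1, Samsn1 and Birc3, an inhibitor of apoptosis with 437 CPM in CIA+VFX, 327 CPM in CIA and 507 CPM in Cont.

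Lectins and pattern receptors had 6 of 20 measured genes higher in CIA and 2 lower, with a median of 0.18, or 0.002 once the median of each span class was subtracted. Beside Clec4n, the Clec4 cluster genes Clec4a3, Clec4a2, Clec4a1 and Clec4e were higher: Clec4a3 had 123 CPM in CIA+VFX, 124 CPM in CIA and 56.3 CPM in Cont, and Clec4e (Mincle) 92.3 CPM in CIA+VFX, 107 CPM in CIA and 68.4 CPM in Cont. The beta-glucan receptor Clec7a (Dectin-1) had 292 CPM in CIA+VFX, 312 CPM in CIA and 202 CPM in Cont. Cd209e, a neighbour of Cd209a, was lower, with 86.8 CPM in CIA+VFX, 50.2 CPM in CIA and 135 CPM in Cont, and so was the scavenger receptor Cd36, with 43.4 CPM in CIA+VFX, 26.1 CPM in CIA and 60.1 CPM in Cont. Hspa1a and Hspa1b are near-identical copies, and Mgl2 with Clec10a, the Cd209 genes and the Clec4a genes are related in sequence. How the authors' counting treated reads that match several such genes was not examined, so their single values carry that uncertainty.

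Monocyte markers were higher in 6 of 18 measured genes in CIA and lower in 1, with a median of 0.39, or 0.23 once the median of each span class was subtracted. Vcan, a proteoglycan gene of blood monocytes, had 71.5 CPM in CIA+VFX, 70.8 CPM in CIA and 8.26 CPM in Cont, from 37 of 214 cells in CIA+VFX, 49 of 245 in CIA and 8 of 161 in Cont. Ly6c2, the surface antigen of inflammatory monocytes, had 56.8 CPM in CIA+VFX, 129 CPM in CIA and 65.4 CPM in Cont, and Plac8 207 CPM in CIA+VFX, 338 CPM in CIA and 185 CPM in Cont. Lyz2 had 3290 CPM in CIA+VFX, 3029 CPM in CIA and 1827 CPM in Cont, and Thbs1, a matricellular glycoprotein, 678 CPM in CIA+VFX, 591 CPM in CIA and 335 CPM in Cont. Macrophage markers pointed the other way in CIA, with a median of -0.45, or -0.19 once the median of each span class was subtracted. The interval of the uncorrected median, -1.08 to 0.34, included 0. Of 12 measured macrophage markers 1 was higher and 5 were lower. These were Timd4, Cd163, Selenop, Pf4 and Apoe, of which Cd163, the haemoglobin scavenger receptor, had 67.8 CPM in CIA+VFX, 48.2 CPM in CIA and 113 CPM in Cont and Apoe, an apolipoprotein, 460 CPM in CIA+VFX, 250.1 CPM in CIA and 398 CPM in Cont. Type 2 dendritic cell genes had 1 of 20 higher and 3 lower: Clec4a2 was higher, and Zbtb46, Rbpj and Cd24a were lower. Rbpj, the nuclear effector of Notch signalling, had 423 CPM in CIA+VFX, 313 CPM in CIA and 575 CPM in Cont.

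Cytokine genes gave 3 higher and 2 lower of 9 measured. Il1b, the gene of interleukin-1 beta, had 4033 CPM in CIA+VFX, 5174 CPM in CIA and 2669 CPM in Cont, a log2 ratio of 0.95 (95% interval 0.90 to 1.01), and Il6 had 28.1 CPM in CIA+VFX, 55.2 CPM in CIA and 24.8 CPM in Cont. Il18 was lower, with 34.8 CPM in CIA+VFX, 31.1 CPM in CIA and 62.4 CPM in Cont. Among 23 cytokine receptor genes, 3 were higher and 1 lower, where 12% of all measured genes were higher and 11.7% lower. Il7r, the receptor chain shared by interleukin-7 and thymic stromal lymphopoietin, was that lower gene, with 415 CPM in CIA+VFX, 345 CPM in CIA and 679 CPM in Cont. Ifngr2, a chain of the interferon gamma receptor, had 125 CPM in CIA+VFX, 166 CPM in CIA and 103 CPM in Cont. Interferon induced genes had 6 of 19 higher and 1 lower, with a median of 0.12 that turned to -0.11 when the median of each span class was subtracted. Isg15, a ubiquitin-like protein gene, had 180.2 CPM in CIA+VFX, 213 CPM in CIA and 91.7 CPM in Cont, and Ifi211 42.2 CPM in CIA+VFX, 67.3 CPM in CIA and 22.5 CPM in Cont, while Rsad2 (viperin) was lower in CIA, with 85.5 CPM in CIA+VFX, 34.7 CPM in CIA and 67.6 CPM in Cont.

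Glycolysis and hypoxia genes had 6 of 16 higher in CIA and none lower, with a median of 0.31. Ndrg1, a stress-responsive gene of low oxygen, had 215 CPM in CIA+VFX, 269 CPM in CIA and 128 CPM in Cont, and the glycolytic enzyme gene Pgam1 150.3 CPM in CIA+VFX, 155 CPM in CIA and 77.4 CPM in Cont. Gapdh had 726 CPM in CIA+VFX, 961 CPM in CIA and 639 CPM in Cont, and Ldha, which makes lactate, 228 CPM in CIA+VFX, 251 CPM in CIA and 162 CPM in Cont. Metallothionein and glucocorticoid response genes had 1 of 13 higher and 3 lower. Of p53 targets 1 of 7 was higher, Cdkn1a, the cyclin-dependent kinase inhibitor p21, with 1140 CPM in CIA+VFX, 1295 CPM in CIA and 760.2 CPM in Cont, and Mdm2, which encodes the ubiquitin ligase of p53, had 149 CPM in CIA+VFX, 168 CPM in CIA and 121 CPM in Cont, within 1.5-fold. Lipid handling genes had 4 of 19 higher and 5 lower, among them the lectin gene Lgals3, with 1832 CPM in CIA+VFX, 2301 CPM in CIA and 1388 CPM in Cont, and the nuclear receptor gene Pparg, lower with 88.6 CPM in CIA+VFX, 90.4 CPM in CIA and 156 CPM in Cont.

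Immediate early and stress genes had 9 of 29 measured genes higher in CIA and 3 lower, with a median of 0.26, or 0.013 once the median of each span class was subtracted. The higher ones were Jund, Ier3, Klf2 and the heat shock genes Hspa1a, Hspa1b, Hsp90aa1, Hspa8, Hsph1 and Dnajb1, and the lower ones Egr1, Nr4a3 and Tnfaip3. The 6 heat shock genes were picked out after their values were seen, so that all of them were higher follows from the choice. Hsph1, a cochaperone of Hsp70, had 161 CPM in CIA+VFX, 250.1 CPM in CIA and 72.1 CPM in Cont, and Dnajb1, an Hsp40, 228 CPM in CIA+VFX, 262 CPM in CIA and 91.7 CPM in Cont. Hspa1a, the stress-inducible Hsp70, had 476 CPM in CIA+VFX, 656 CPM in CIA and 245 CPM in Cont, and Hspa8, its constitutive relative, 1785 CPM in CIA+VFX, 1896 CPM in CIA and 1018 CPM in Cont. The 6 genes summed to 4455 CPM in CIA+VFX, 5096 CPM in CIA and 2516 CPM in Cont. In type 1 dendritic cells the same sum was 6880, 7563 and 2606 CPM, in Folr2 macrophages 6602, 6677 and 3376 CPM, in mature dendritic cells 2147, 2329 and 2159 CPM, and in keratinocytes 2915, 2708 and 3286 CPM. In Ly6c2 monocytes it was 2622, 3094 and 2031 CPM, and in the cells left out by the Lyz1, Ear2 and Dcstamp term alone 3195, 4252 and 2396 CPM. The model libraries were thus above Cont in members, type 1 dendritic cells, macrophages, monocytes and the cells left out by that term. They were level with Cont in mature dendritic cells and below it in keratinocytes. The skin was dissociated with an enzyme before capture, and the part of that step was not tested.

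Heat shock factor binds inverted repeats of the unit GAA. The 250 bases before the annotated start of 2 of these genes are shown for reference beside those values, from RefSeq on build GRCm38.p6, minus strand, with the repeat GAANNTTC or TTCNNGAA in capitals. Those of Hsph1 lie at chr5:149636337-149636586 and those of Hspa1a at chr17:34972157-34972406.
Hsph1: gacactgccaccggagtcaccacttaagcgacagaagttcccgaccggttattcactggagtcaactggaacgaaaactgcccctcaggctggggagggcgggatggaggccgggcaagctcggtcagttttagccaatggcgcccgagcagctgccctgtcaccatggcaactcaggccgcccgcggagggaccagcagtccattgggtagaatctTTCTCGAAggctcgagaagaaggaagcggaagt
Hspa1a: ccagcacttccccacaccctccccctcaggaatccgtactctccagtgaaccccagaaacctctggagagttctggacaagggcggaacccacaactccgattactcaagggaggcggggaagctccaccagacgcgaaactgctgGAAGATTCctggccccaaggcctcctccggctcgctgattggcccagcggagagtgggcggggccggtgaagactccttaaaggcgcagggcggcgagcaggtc
Each of these windows held 1 match, which begins 33 bases before the start of Hsph1 used here and 104 bases before that of Hspa1a. Hsph1 has a further annotated start, and the same match begins 54 bases before it. Bases after the start are not shown. Both strands were searched, since the letters read the same on either, and matches may overlap. Of 32851 such windows of all genes in the table, 12.8% held the letters, so a match by itself is common. Neither window given for Dnajb1 held them.

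In members, mitosis genes were also highest in CIA. Of 24 measured genes of the G2/M list, 12 were higher in CIA and 1 lower, with a median log2 ratio of 0.57. The proliferation antigen gene Mki67 had 171 CPM in CIA+VFX, 267 CPM in CIA and 146 CPM in Cont, and Top2a, which untangles replicated DNA, 133 CPM in CIA+VFX, 254 CPM in CIA and 167 CPM in Cont. Birc5 (survivin) had 39.1 CPM in CIA+VFX, 77.3 CPM in CIA and 33.8 CPM in Cont, and Cenpe, a kinetochore motor, 31.2 CPM in CIA+VFX, 44.2 CPM in CIA and 13.5 CPM in Cont. A set of 9 mitosis genes chosen after the data had been seen summed to 510 CPM in CIA+VFX, 924 CPM in CIA and 515 CPM in Cont. After thinning to 2000 UMIs, 24 of 211 members had at least 2 UMIs of these genes in CIA+VFX (11.4%, interval 7.43 to 16.5%), 46 of 243 in CIA (18.9%, 14.2 to 24.4%) and 19 of 152 in Cont (12.5%, 7.70 to 18.8%). The thinning left out 3, 2 and 9 shallower members, and without it the shares were 28.5%, 32.2% and 24.2%. In Folr2 macrophages the thinned shares were 2.21%, 0.990% and 0.644%, and in type 1 dendritic cells 20.5%, 18.4% and 14.5%. CIA was highest in members, but the intervals of the libraries overlapped. The longer G2/M list is less sharp at 2 UMIs: it marked 72.0%, 72.4% and 63.8% of thinned members and is not read as a count of dividing cells.

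**Figure D4:**
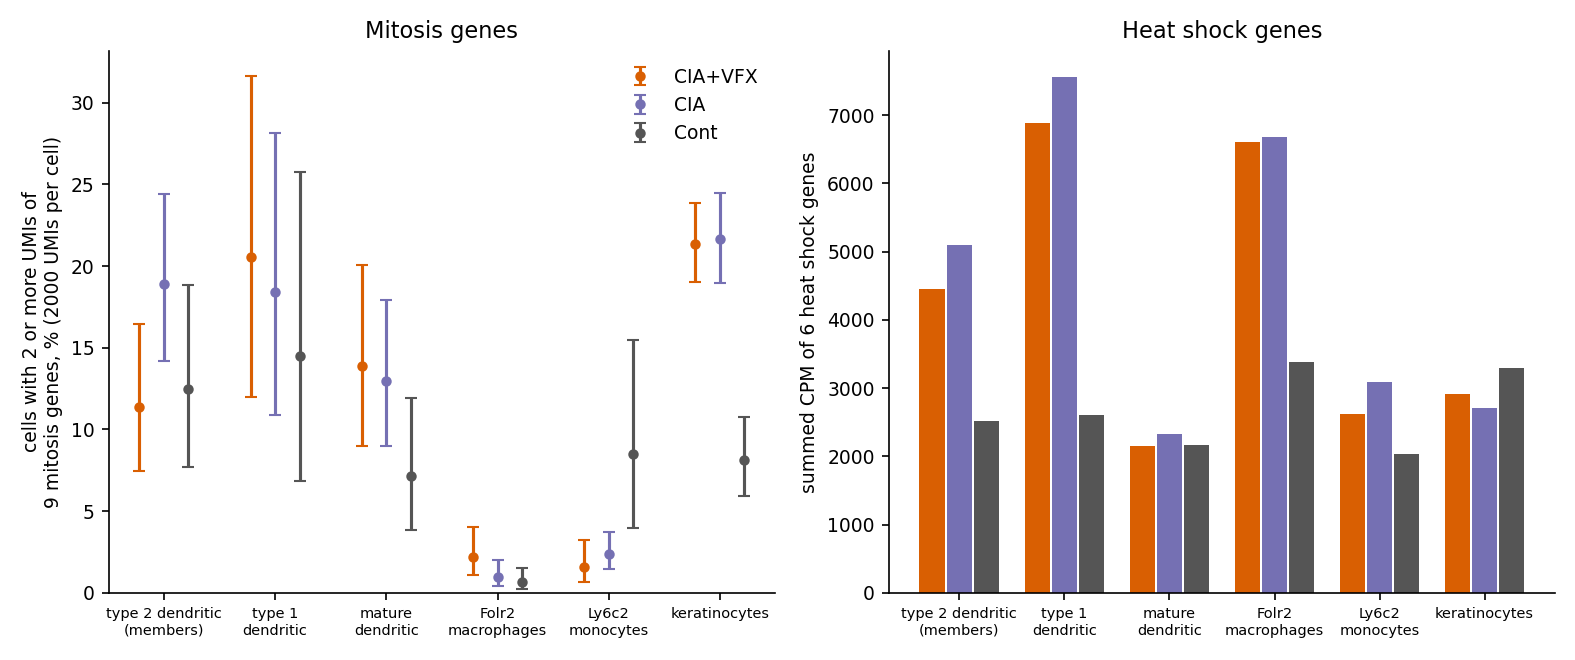
Left, percent of cells with at least 2 UMIs of 9 mitosis genes after thinning to 2000 UMIs per cell, with exact binomial 95% intervals; right, summed CPM of 6 heat shock genes. Among members the mitosis share is highest in CIA (18.9%). Heat shock sums are higher in CIA+VFX and CIA than in Cont in members, type 1 dendritic cells, Folr2 macrophages and Ly6c2 monocytes. They are not higher in keratinocytes and are nearly level in mature dendritic cells.

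**Figure D5:**
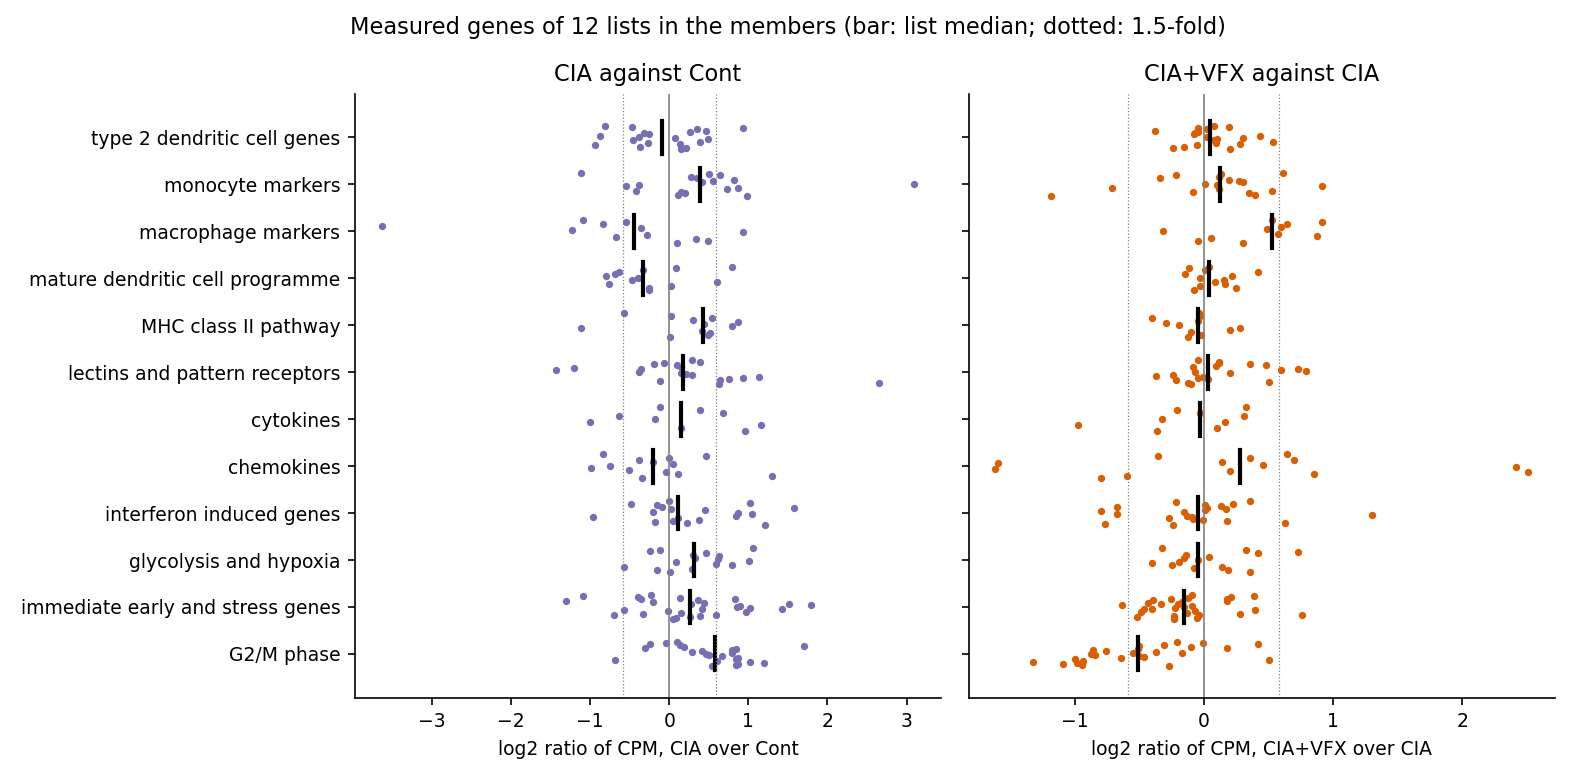
Each point is the log2 ratio of 1 measured gene outside the rule in summed members, for CIA over Cont (left) and CIA+VFX over CIA (right), by gene list; bars are list medians and dotted lines mark 1.5-fold. The G2/M list lies to the right for CIA over Cont (median 0.57) and to the left for CIA+VFX over CIA (median -0.51).

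Setting CIA+VFX against CIA asks what venlafaxine, a blocker of serotonin and noradrenaline reuptake, did within the model. CIA+VFX members had more Ccl5, Mmp12 and Peli1 and more of several macrophage markers, and less Retnla, Ly6c2 and mitosis genes. Of 4683 measured genes 219 were higher in CIA+VFX (4.68%) and 152 lower (3.25%). The genes higher in CIA+VFX had a median span of 68.1 kb and the lower ones 12.9 kb, and genes over 100 kb had a median log2 ratio of 0.21. In keratinocytes the median of genes over 100 kb was 0.09. Of the 24 genes named for this comparison, 16 came under 1.5-fold or turned in at least 1 alternative: Ccl8, Mmp12, Ifih1, Spred1, St6gal1, F13a1 and Oasl1 on the higher side, and S100a3, Retnla, Acadl, Jaml, Tuba1b, Bcl11a, Stmn1, Txnip and Alyref on the lower. Without the Lyz1, Ear2 and Dcstamp term the log2 ratio of Mmp12 was 0.51, and without the Folr2, Cd209f and Fcna term that of Ccl8 was 0.42.

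Ccl5, a chemokine that attracts T cells and monocytes, was furthest above CIA, with 100.2 CPM in CIA+VFX, 17.6 CPM in CIA and 40.6 CPM in Cont and a log2 ratio of 2.51 (95% interval 1.98 to 3.08). Its UMIs came from 16 of 214 cells in CIA+VFX, 4 of 245 in CIA and 14 of 161 in Cont, so a few cells set the sum. Ccl8, a chemokine of dermal macrophages, had 182 CPM in CIA+VFX, 34.2 CPM in CIA and 67.6 CPM in Cont, but 161 of its 298 UMIs in CIA+VFX came from 1 cell, and Folr2 macrophages had 9141 CPM in CIA+VFX, 9237 CPM in CIA and 6213 CPM in Cont. Mmp12, the macrophage elastase, had 143 CPM in CIA+VFX, 59.8 CPM in CIA and 9.77 CPM in Cont, a log2 ratio of 1.26 (95% interval 0.93 to 1.59) for CIA+VFX over CIA. Mmp12 was seen in 40 of 214 cells in CIA+VFX, 26 of 245 in CIA and 5 of 161 in Cont, so the 3 libraries were ordered with CIA+VFX on top and Cont at the bottom. The cells left out by the term on Lyz1, Ear2 and Dcstamp had 406 CPM of Mmp12 in CIA+VFX, 348 CPM in CIA and 200.3 CPM in Cont, and mature dendritic cells 137 CPM in CIA+VFX, 154 CPM in CIA and 22.7 CPM in Cont.

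Peli1, a ubiquitin ligase of Toll-like receptor signalling, had 197 CPM in CIA+VFX, 81.9 CPM in CIA and 235 CPM in Cont, and the transcriptional repressor gene Bcl6 118 CPM in CIA+VFX, 64.8 CPM in CIA and 133 CPM in Cont. Hdac9 reappeared here on the higher side, 2.72-fold above CIA. In these 3 genes CIA was low and CIA+VFX lay nearer to Cont. Ifih1, the cytosolic RNA sensor MDA5, had 101 CPM in CIA+VFX, 47.7 CPM in CIA and 72.1 CPM in Cont, and Oasl1, an interferon induced gene, 128 CPM in CIA+VFX, 68.3 CPM in CIA and 119 CPM in Cont. F13a1, the A chain of coagulation factor XIII, had 175 CPM in CIA+VFX, 92.4 CPM in CIA and 135 CPM in Cont. Among members with a Flt3 or Zbtb46 UMI its log2 ratio was -0.26, so its direction rested on the members without one. The sialyltransferase gene St6gal1 had 126 CPM in CIA+VFX, 65.3 CPM in CIA and 125 CPM in Cont. Spred1, an inhibitor of Ras signalling, and Bbx, a DNA-binding protein gene, were 2.09-fold and 1.90-fold higher.

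Retnla, which encodes the secreted protein RELM alpha of alternatively activated macrophages, had 24.4 CPM in CIA+VFX, 128 CPM in CIA and 279 CPM in Cont, a log2 ratio of -2.39 (95% interval -2.91 to -1.90). Its UMIs came from 6 of 214 cells in CIA+VFX, 29 of 245 in CIA and 79 of 161 in Cont, and 102 of the 255 in CIA came from 1 cell. After thinning, 1.42% of members in CIA+VFX, 4.53% in CIA and 19.7% in Cont had a Retnla UMI, against 0.694% of keratinocytes in CIA+VFX, 1.24% in CIA and 10.2% in Cont, so part of the Cont share is at the level of free RNA. Folr2 macrophages had 2973 CPM in CIA+VFX, 3828 CPM in CIA and 18208 CPM in Cont, with Cont highest and CIA+VFX lowest as in members. Without the term on Lyz1, Ear2 and Dcstamp the log2 ratio of Retnla was 0.16, so its direction rested on that term. Ly6c2 was 2.27-fold lower in CIA+VFX than in CIA, and its UMIs came from 29 of 214 cells in CIA+VFX, 57 of 245 in CIA and 18 of 161 in Cont. After thinning, 6.64% of members in CIA+VFX, 14.0% in CIA and 4.61% in Cont had a Ly6c2 UMI. In members Ly6c2 was thus high only in CIA among the 3 libraries, with CIA+VFX near Cont. Over all cells that passed the filter Ly6c2 was also highest in CIA, with 33.6 CPM in CIA+VFX, 77.9 CPM in CIA and 11.1 CPM in Cont. The part of free RNA in the difference between members was not tested.

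Of 26 measured G2/M genes, none was higher in CIA+VFX than in CIA and 11 were lower, with a median of -0.51. Ube2c, which drives the exit from mitosis, had 58.7 CPM in CIA+VFX, 125 CPM in CIA and 68.4 CPM in Cont, a log2 ratio of -1.09 (95% interval -1.44 to -0.74). Stmn1, a microtubule destabiliser of cycling cells, had 181 CPM in CIA+VFX, 307 CPM in CIA and 192 CPM in Cont, and the tubulin gene Tuba1b 167 CPM in CIA+VFX, 320.4 CPM in CIA and 177 CPM in Cont. For the 9 mitosis genes chosen above, type 1 dendritic cells had summed levels of 1000 CPM in CIA+VFX, 812 CPM in CIA and 432 CPM in Cont, so the order of CIA+VFX and CIA there was the opposite one, whereas mature dendritic cells had 289, 486 and 198 CPM. Further genes lower in CIA+VFX were Acadl, an enzyme of fatty acid oxidation, with 50.1 CPM in CIA+VFX, 104 CPM in CIA and 83.4 CPM in Cont, the adhesion molecule gene Jaml, with 55.0 CPM in CIA+VFX, 108 CPM in CIA and 86.4 CPM in Cont, and Txnip, which binds thioredoxin, with 115 CPM in CIA+VFX, 191 CPM in CIA and 109.7 CPM in Cont. The lymphoid transcription factor gene Bcl11a had 58.0 CPM in CIA+VFX, 105 CPM in CIA and 148 CPM in Cont, and the RNA export factor gene Alyref 111 CPM in CIA+VFX, 183 CPM in CIA and 82.6 CPM in Cont.

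Macrophage markers had 4 of 11 measured genes higher in CIA+VFX and none lower, with a median of 0.53, against 0.02 over all measured genes. These were F13a1, Apoe, Pf4 and Mrc1, and Mrc1, the mannose receptor, had 1083 CPM in CIA+VFX, 716 CPM in CIA and 914 CPM in Cont. Monocyte markers gave 2 of 18 higher, F13a1 and Gsr, and 2 lower, Ly6c2 and Plac8. Chemokines were split, with 5 of 14 higher and 4 lower. Ccl4, a chemokine of activated myeloid cells, had 899.9 CPM in CIA+VFX, 498 CPM in CIA and 461 CPM in Cont, and the neutrophil attractant Cxcl1 55.6 CPM in CIA+VFX, 167 CPM in CIA and 162 CPM in Cont. Ccl7, a monocyte attractant, had 39.7 CPM in CIA+VFX, 122 CPM in CIA and 173 CPM in Cont, and 126 of its 242 UMIs in CIA came from 1 cell. Interferon induced genes had 2 of 22 higher and 4 lower, with a median of -0.04, so the list as a whole was not higher in CIA+VFX. Rsad2 led the 2 higher ones, with 85.5 CPM in CIA+VFX, 34.7 CPM in CIA and 67.6 CPM in Cont.

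Lectins and pattern receptors had 3 of 21 genes higher in CIA+VFX and none lower, Cd209e, Mrc1 and Cd36. Lipid handling genes had 3 of 20 higher and none lower, Apoe, Lpl and Cd36, and Langerhans cell markers 2 of 4, Cd207 and Cdh1. In other lists few or no genes passed 1.5-fold, where 4.68% of all measured genes were higher and 3.25% lower, so that a count of 0 in a list of this size differs little from the background. None of 20 type 2 dendritic cell genes was higher or lower, nor any of 11 MHC class II pathway genes, 16 MHC class I pathway genes, 14 costimulation and checkpoint genes or 13 genes of the mature programme. Of 24 cytokine receptor genes 1 was higher, and of 9 cytokine genes 1 was lower, Il6. Glycolysis and hypoxia genes gave 1 higher of 15, and p53 targets 1 lower of 8. Metallothionein and glucocorticoid response genes had 2 of 13 higher, the kinase gene Sgk1, with 54.4 CPM in CIA+VFX, 32.6 CPM in CIA and 68.4 CPM in Cont, and Klf9, with 122 CPM in CIA+VFX, 81.4 CPM in CIA and 103 CPM in Cont. Immediate early and stress genes had 1 of 29 higher, Egr1, and 1 lower, Hsph1.

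CIA+VFX was also set against Cont, and this comparison shares its libraries with the other 2. Of 4117 measured genes 321 were higher in CIA+VFX (7.8%) and 265 lower (6.44%). The 6 named higher genes were Mmp12, Pgf, Clec4n, Tppp3, Ms4a6d and Il1r2, with log2 ratios between 1.57 and 3.87. The 6 lower ones were Timd4, Dhx40, Apod, Prr5l, Cyp7b1 and Arap2, with log2 ratios between -3.86 and -1.56. Apod, which encodes apolipoprotein D, had 88.0 CPM in CIA+VFX, 168 CPM in CIA and 344 CPM in Cont, from 29 of 214 cells in CIA+VFX, 44 of 245 in CIA and 51 of 161 in Cont. Of these 12 genes 10 were also named for CIA against Cont, and Mmp12 and Apod were not. The log2 ratio of Mmp12 was 0.53 with the rule applied at 3000 UMIs per cell, that of Cyp7b1 -0.36 without the Lyz1, Ear2 and Dcstamp term, and that of Ms4a6d 0.25 without the Folr2, Cd209f and Fcna term, so these 3 depended on the rule. None of 17 measured G2/M genes was apart from Cont in either direction, with a median of 0.01. Immediate early and stress genes had 6 of 29 higher, the heat shock genes named above, and 2 lower, with a median of 0.01. Monocyte markers had 6 of 18 higher and none lower, with a median of 0.41.

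Of the genes through which venlafaxine and monoamines act, a transporter and a receptor are given here. Slc6a4, the serotonin transporter, had 3 UMIs in CIA+VFX and 0 in CIA and Cont, where a count of 0 allows up to 1.51 CPM and 2.25 CPM. Htr7, a serotonin receptor coupled to cyclic AMP, was expressed, with 139 CPM in CIA+VFX, 129.6 CPM in CIA and 102 CPM in Cont, and its UMIs came from 85 of 214 cells in CIA+VFX, 94 of 245 in CIA and 51 of 161 in Cont. After thinning it was found in 17.1% of members in CIA+VFX, 17.3% in CIA and 13.8% in Cont and in no thinned keratinocyte of the 3 libraries. Type 1 dendritic cells had 476 CPM in CIA+VFX, 417 CPM in CIA and 367 CPM in Cont, mature dendritic cells 235 CPM in CIA+VFX, 175 CPM in CIA and 81.1 CPM in Cont, and Folr2 macrophages 3.31 CPM in CIA+VFX, 3.31 CPM in CIA and 1.12 CPM in Cont. Htr7 was thus a gene of the dendritic groups, and in members its level differed by less than 1.5-fold between any pair of libraries.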

How the data were processed

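Single-cell RNA was measured in 3 libraries, 1 per group. Per the labels' protocols, dorsal skin was dissociated with collagenase and captured as 3' libraries, and per the submitters' processing notes the genome build was GRCm39, with FastQC 0.11.7 named among the tools. Per the file headers the authors made the deposited UMI counts per gene and barcode with Cell Ranger 8.0.1. These counts are not scaled, and they were not divided by gene length. Barcodes with fewer than 500 genes or more than 15% of UMIs from mitochondrial genes were dropped, members were chosen by the rule, and their counts were summed per library and scaled to CPM with Python 3.11.15, numpy 2.4.6, scipy 1.17.1 and pandas 2.3.3. Ratios carry exact conditional binomial intervals, levels exact Poisson intervals and shares exact Clopper-Pearson intervals, all at 95% and for counting error only. A simulated-doublet score placed 18 of 214 members in CIA+VFX, 25 of 245 in CIA and 7 of 161 in Cont among probable doublets; they were kept and left out in an alternative. Shares of cells were compared after thinning to 2000 UMIs. TMM factors came from edgeR 4.0.16 in R 4.3.3, for scaling alone. The computation was tested on simulated data.

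With 1 library per group no test between groups was possible. The 12 highest and 12 lowest log2 ratios were named in CIA against Cont and in CIA+VFX against CIA, and 6 each way in CIA+VFX against Cont, among genes that reached 100 UMIs, 100 CPM and 0.5 times the level of all kept cells in whichever library was higher. The genes of the rule and mitochondrial, ribosomal, haemoglobin, immunoglobulin and unnamed genes were left out. Within lists, the genes furthest from 1.5-fold and the most abundant ones were named, and a few others were chosen after their values were seen. The members, the lists and the comparisons were chosen with earlier results of these data known. The mitosis and heat shock sets, the span correction and the changes to 3 terms of the rule were chosen after seeing the data. Gene spans came from an annotation of build GRCm38, matched for 99.7% of measured genes in CIA against Cont. Alternatives covered the rule, cell filter, depth, scaling, gene minimum, fold, free RNA and doublets. Some genes of the lists are not reported here.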

Additional observations from a re-analysis of the deposited data

Results flagged for a closer look

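In the results below the members moved one way and another group of cells in the same libraries moved the other way. The difference was not tested, since each group of mice was 1 library.

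Against type 1 dendritic cells, Il1r2 had a log2 ratio of 1.97 in members and -0.70 in type 1 dendritic cells for CIA over Cont, and 1.57 and -0.73 for CIA+VFX over Cont; 34 of the 109 UMIs in Cont type 1 dendritic cells came from 1 cell. Top2a had -0.94 in members and 0.90 in type 1 dendritic cells for CIA+VFX over CIA, where type 1 dendritic cells had 258 CPM in CIA+VFX, 139 CPM in CIA and 87.2 CPM in Cont.

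Against mature dendritic cells, for CIA+VFX over CIA, F13a1 had 0.92 in members and -1.10 in mature dendritic cells, where 54 of its 134 UMIs in CIA came from 1 cell. Oasl1 had 0.90 in members and -1.09 in mature dendritic cells, and Retnla had -2.39 and 2.74, where 179 of the 299 UMIs in CIA+VFX mature dendritic cells came from 1 cell.

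Against Folr2 macrophages, Timd4 had -3.64 in members and 0.65 in macrophages for CIA over Cont. For CIA+VFX over CIA, Top2a had -0.94 in members and 1.36 in macrophages, and Stmn1 had -0.76 and 0.89. Apod had -1.97 in members and 1.02 in macrophages for CIA+VFX over Cont.

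Against Ly6c2 monocytes, Cyp7b1 had -2.12 in members and 3.29 in monocytes for CIA over Cont, where 81 of 112 UMIs in CIA monocytes came from 1 cell and Cont monocytes had 2 UMIs. For CIA+VFX over CIA, Ccl8 had 2.41 in members and -1.36 in monocytes, and Oasl1 had 0.90 and -0.78.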

How the results depend on the processing

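No paired analysis was possible because each group was 1 library, and for the same reason no replicate could be left out. Of 60 named-gene results past 1.5-fold, 56 kept their sign under every alternative that gave a value; S100a3 (CIA over Cont, free RNA subtracted) and Mmp12 (CIA+VFX over Cont, Lyz1, Ear2 and Dcstamp at 0) gave none, Cont being at 0. In at least 1 alternative 2 of 24 named genes came under 1.5-fold in CIA against Cont, 16 of 24 in CIA+VFX against CIA and 3 of 12 in CIA+VFX against Cont. Of the 60 values, 35 moved beyond their interval without the Lyz1, Ear2 and Dcstamp term and 29 with the rule at 3000 UMIs per cell. The cause of the changes below was not tested. With cells that have a Ptprc UMI as denominator, the ratio of shares was 1.14 for CIA+VFX against CIA and 1.60 for CIA+VFX against Cont. With MHC class II positive cells it was 1.54 for CIA against Cont, 1.27 for CIA+VFX against CIA and 1.96 for CIA+VFX against Cont. Without the Lyz1, Ear2 and Dcstamp term it was 0.577 (CIA to Cont) and 0.491 (CIA+VFX to Cont), without the Folr2, Cd209f and Fcna term 0.843 and 0.705, and with Flt3 or Zbtb46 required 0.721 for CIA+VFX against Cont.

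Counts of genes depended on the minimum and the fold. At 30 UMIs they were 1271 higher and 993 lower in CIA against Cont, 715 and 542 in CIA+VFX against CIA, and 1007 and 685 in CIA+VFX against Cont. At 300 UMIs they were 181 and 229, 56 and 24, and 87 and 93 in the same order. At 2-fold they were 133 and 122, 37 and 25, and 81 and 57. Thinned to 2000 UMIs per cell they were 491 and 433 in CIA+VFX against CIA and 635 and 462 in CIA+VFX against Cont. Without the Lyz1, Ear2 and Dcstamp term 925 genes were higher in CIA against Cont and 744 in CIA+VFX against Cont, and without the Folr2, Cd209f and Fcna term 428 were lower in CIA+VFX against Cont.

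Some results turned. S100a3, whose CIA level rests on 1 cell, had a log2 ratio for CIA+VFX over CIA of 1.11 without doublets, 1.57 with the rule applied at 3000 UMIs per cell and 1.05 without the highest cell, and -1.93 for CIA over Cont at 3000 UMIs. Retnla for CIA+VFX over CIA was 0.16 without the Lyz1, Ear2 and Dcstamp term, where the median of type 1 dendritic cell markers for CIA over Cont was -0.11. F13a1 for CIA+VFX over CIA was -0.085 without the Folr2, Cd209f and Fcna term and -0.26 with Flt3 or Zbtb46 required. The number of members limits the shares, and genes at 0 may lie up to 1.83 CPM in CIA+VFX, 1.51 CPM in CIA and 2.25 CPM in Cont.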

Other observations

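Langerhans cell markers, which belong to epidermal dendritic cells, were low but uneven in the members. Cd207 (langerin) had 44.6 CPM in CIA+VFX, 23.1 CPM in CIA and 2.25 CPM in Cont, and the adhesion molecule gene Epcam had 42.2 CPM in CIA+VFX, 41.7 CPM in CIA and 15.8 CPM in Cont. The 10 markers of this list summed to 419.7 CPM in CIA+VFX, 298 CPM in CIA and 339.6 CPM in Cont.

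Migration receptors differed in a few genes. Ptger4, the prostaglandin E receptor EP4, had 84.3 CPM in CIA+VFX, 57.3 CPM in CIA and 137 CPM in Cont, and P2ry10, a lysophospholipid receptor gene, had 163 CPM in CIA+VFX, 120 CPM in CIA and 274 CPM in Cont. Ltb4r1, the leukotriene B4 receptor, lay the other way, with 80.6 CPM in CIA+VFX, 105 CPM in CIA and 50.3 CPM in Cont. Of S phase genes 4 of 10 measured were higher in CIA than in Cont and none lower, where 12% of all measured genes were higher and 11.7% lower. The median log2 ratio of the list was 0.34, with an interval of -0.20 to 0.88 that included 0. Mcm4, a subunit of the replicative helicase, was among the higher ones, with 59.3 CPM in CIA+VFX, 51.2 CPM in CIA and 27.8 CPM in Cont.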
